A study of Homo sapiens with 6 samples.

Results

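The EPHA receptors and ephrin-A ligands described here are 10 genes, 5 receptors (EPHA1, EPHA2, EPHA3, EPHA4 and EPHA7) and 5 ligands (EFNA1, EFNA2, EFNA3, EFNA4 and EFNA5). They were picked by gene symbol, as the rows of the count table whose Ensembl identifiers carry these symbols in GENCODE 29, and make up 10 of the 58735 rows. All 10 were detected and passed the filter on low counts, which kept 16561 genes. The symbols EPHA5, EPHA6, EPHA8 and EPHA10 complete the receptor class but lie outside this selection.

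RNA was sequenced from 6 cultures of H9 (WA09) human embryonic stem cells of wild-type genotype at day 9 of directed differentiation toward the third pharyngeal pouch endoderm (3PPE), the tissue that gives rise to thymus and parathyroid. At day 7, 3 cultures received a negative control siRNA (siControl) and 3 received an siRNA against HOXA3 (siHOXA3), both with Lipofectamine 3000, and opti-MEM replaced the differentiation medium some hours later. Both groups had otherwise the same history. H9 cells had grown on mouse embryonic fibroblast (MEF) feeders and were exposed to Activin A (100 ng/ml throughout the first stage) with WNT3A (50 ng/ml) and the ROCK inhibitor Y-27632 (10 μM) on the first day, then to 0.5% B27. From day 4 they were kept on Matrigel with 0.5% B27, retinoic acid (1 μM), SB431542 (10 μM), BMP4 (20 ng/ml) and IWP2 (2.5 μM). The model is a single cell line, and no sort before RNA extraction is described. The labels speak of triplicates and do not say that the 3 came from separate differentiations. The study's legends to figures that include the sequencing state 3 independent biological repeats, without saying what was repeated. The p-values thus measure only the spread between these samples, which may be technical.

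Eph receptors are the largest family of receptor tyrosine kinases, and their ligands, the ephrins, stay attached to the surface of the neighbouring cell. Ephrin-A ligands are held in the membrane by a glycolipid anchor and bind mainly EPHA receptors, while ephrin-B ligands span the membrane and bind mainly EPHB receptors. Contact drives signals into both cells, often with effects on the actin skeleton, and the pathway is known for repulsion between cells, for boundaries between tissues and for the sorting and migration of cells in the embryo, including epithelia of the thymus.

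HOXA3, the homeodomain factor that the siRNA was directed at (chr7:27106184-27152581, minus strand, GRCh38), had 16.65, 15.9 and 15.459 CPM (counts scaled by normalized library size) in siControl replicates 1, 2 and 3, and 10.9, 13.2 and 15.494 CPM in siHOXA3 replicates 1, 2 and 3. Replicates 1 and 2 of siHOXA3 lay below every control, while the library labelled siHOXA3 replicate 3 lay inside the range of the controls, so the groups overlapped. As log2, the fold change of siHOXA3 over siControl was -0.28 ± 0.16 (SE, n = 3 per group; edgeR quasi-likelihood test, adjusted p = 0.828), and it ran from -0.40 without that library to -0.15 without siHOXA3 replicate 1. Of its 50-base transcript stretches, 8.03% also occur in the genes AC004080.5 and AC004080.6, which had no count in any library. On the opposite strand, HOXA-AS2 shares 374 of its exon bases (8.69%) and had 38 to 77 counts, against 159 to 248 for HOXA3. HOXA-AS3, also on the opposite strand, shares 288 (6.69%) and had no count. Whether the counting used strand is not given, so the HOXA3 counts are uncertain to an extent that was not measured. The unadjusted p was 0.108 over all libraries, 0.0385 without the library labelled siHOXA3 replicate 3 (edgeR adjusted p = 0.596) and 0.0315 with limma-voom (adjusted p = 0.325). Directions given below for the siHOXA3 group include that library, except where it is said to be left out.

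Total counts ranged from 14117150 to 15282307 per library, and where no read was counted a level of up to 3 counts, or 0.197 to 0.211 CPM, remains possible from counting error alone. The library labelled siHOXA3 replicate 2 stood apart from the rest. Its median deviation from the mean of each gene (log2 CPM) was 0.221 in the shortest of 4 equal classes of transcript length and -0.19 in the longest, against -0.0512 to 0.0135 and 0.0359 to 0.0483 in the other 5 libraries. Length here is that of the longest annotated transcript of each gene, not the mean transcript length used for levels below. EFNA1, EFNA2, EFNA3 and EFNA4 fall in the shortest class, with transcripts of 949 to 1926 bases, and EFNA5, EPHA3, EPHA4 and EPHA7 in the longest, with 5335 to 6588 bases. EPHA1 (3363 bases) and EPHA2 (3964 bases) lie in the next to longest. Values without this library are given where they matter.

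**Figure D1:**
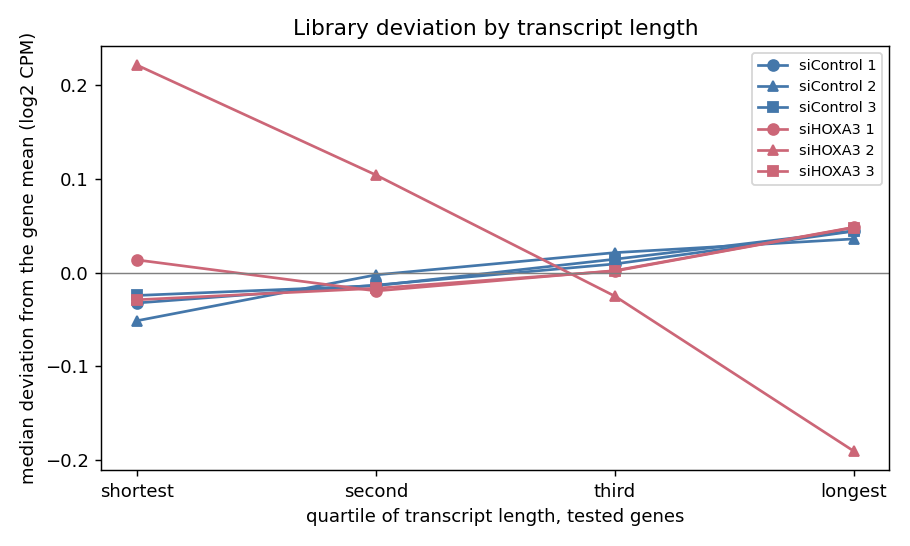
Median deviation of each library from the mean of each gene (log2 CPM) in 4 equal classes of transcript length, from shortest to longest (x axis). Length is that of the longest transcript of each gene. The 3 siControl libraries are in blue and the 3 siHOXA3 libraries in red. The line of siHOXA3 replicate 2 falls from 0.221 to -0.19, while the other 5 lines stay between -0.0512 and 0.0483.

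The defining genes of the labelled cell type were mostly at or near 0. In a list of 12 pouch and endoderm genes, the epithelial genes EPCAM (mean 438 TPM, a count scaled by gene length and library size) and CDH1 (407 TPM) made up nearly all of the summed level, which was 845 to 896 TPM in siControl and 876 to 889 TPM in siHOXA3. EYA1 stood at 15.9 TPM and HOXA3 at 13.2 TPM. FOXA1, FOXA2, SOX17, PAX1, PAX8, PAX9 and TBX1 each averaged under 0.5 TPM. All 8 genes of an amnion and trophoblast list were expressed, led by GABRP (795 TPM), VTCN1 (773 TPM), HAND1 (773 TPM), KRT7 (610 TPM) and GATA3 (349 TPM), and their summed level was 3293 to 3699 TPM in siControl and 3412 to 3586 TPM in siHOXA3. Among mesenchyme genes the collagens COL1A1 (567 TPM) and COL3A1 (532 TPM) led a summed level of 1473 to 1537 TPM in siControl and 1408 to 1754 TPM in siHOXA3, with PRRX1 at 0. LIN28A (1063 TPM) made up most of a pluripotency list of 1095 to 1172 TPM in siControl and 1167 to 1226 TPM in siHOXA3, with NANOG at 0.0562 TPM. Summed lists of endothelial, neural and liver genes were lower, at most 76.7, 12.8 and 8.11 TPM in any library. Which of the cells in these cultures carried the Eph and ephrin transcripts was not measured. In bulk RNA, fewer cells of a type and less RNA per cell cannot be told apart.

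The promoters shown here are those of the receptor with the most copies of the homeodomain core and of the 3 members whose log2 fold changes lay farthest from 0. HOXA3 belongs to the homeodomain proteins, many of which recognise a core of TAAT, read as ATTA on the other strand. RefSeq sequences (GRCh38.p14) running from 250 bases before the annotated start to 50 bases after it were found for all 10 members, 13 starts in all, and are written 5′ to 3′ on the strand of the gene. Capitals mark each TAAT or ATTA. EPHA1 lies at chr7:143408807-143409106 on the minus strand, the upstream start of EPHA4 at chr2:221574153-221574452 on the minus strand, EPHA3 at chr3:89107371-89107670 on the plus strand and EFNA4 at chr1:155063490-155063789 on the plus strand.
EPHA1: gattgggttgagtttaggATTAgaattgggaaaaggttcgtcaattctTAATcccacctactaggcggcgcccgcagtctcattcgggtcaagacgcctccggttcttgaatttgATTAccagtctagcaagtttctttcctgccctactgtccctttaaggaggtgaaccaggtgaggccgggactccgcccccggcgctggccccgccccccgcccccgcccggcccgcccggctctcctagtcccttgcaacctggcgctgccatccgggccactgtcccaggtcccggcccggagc
EPHA4: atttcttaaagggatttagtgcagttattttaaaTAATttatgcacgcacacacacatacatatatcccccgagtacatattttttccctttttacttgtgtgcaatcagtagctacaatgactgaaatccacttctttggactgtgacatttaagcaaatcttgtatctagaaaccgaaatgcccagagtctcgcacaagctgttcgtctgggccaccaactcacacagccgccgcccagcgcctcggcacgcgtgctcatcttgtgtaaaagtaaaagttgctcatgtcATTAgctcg
EPHA3: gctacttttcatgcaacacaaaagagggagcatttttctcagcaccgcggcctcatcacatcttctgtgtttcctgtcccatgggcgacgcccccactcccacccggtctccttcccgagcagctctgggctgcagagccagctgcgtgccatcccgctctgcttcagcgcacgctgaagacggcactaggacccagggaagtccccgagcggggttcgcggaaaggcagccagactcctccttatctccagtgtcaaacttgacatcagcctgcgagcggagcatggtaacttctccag
EFNA4: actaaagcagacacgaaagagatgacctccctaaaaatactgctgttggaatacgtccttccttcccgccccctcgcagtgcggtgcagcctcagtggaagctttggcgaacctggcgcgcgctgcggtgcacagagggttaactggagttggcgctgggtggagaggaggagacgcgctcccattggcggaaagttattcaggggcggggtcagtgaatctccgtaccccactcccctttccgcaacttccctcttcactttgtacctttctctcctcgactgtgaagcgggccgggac

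The EPHA1 window held 3 matches, the upstream EPHA4 window 2, and those of EPHA3 and EFNA4 none. The other EPHA4 start (chr2:221572255-221572554, minus strand) also had none. A core was present in 4 of the 13 member promoters (30.8%), which also included those of EPHA2 and of the farthest upstream start of EPHA7, and in 50.2% of all 35116 RefSeq promoters of the same length. None of the ephrin-A promoters held a match. The member promoters had a median GC content of 64.3% and a median of 24 CpG dinucleotides, against 58.7% and 14 over all promoters. A match of 4 letters is a description of the sequence only.

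The 5 receptors and 5 ligands did not contribute equally to the pool of transcripts. Levels were compared between genes as TPM, computed from the deposited counts with the summed exon length of each gene. EFNA1, an ephrin known from epithelia and blood vessels, was the most abundant member at 62.7 TPM (range 59.3 to 71.0 over 6 libraries), more than 83.2% of the tested genes. EPHA1, a receptor typical of epithelia, followed at 48.1 TPM (40.7 to 51.8), above 77.3% of the tested genes. EFNA4 (37.2 TPM, 30.5 to 49.8), EPHA2 (34.3 TPM, 25.1 to 39.0), the main EPHA receptor of many epithelia, and EFNA5 (30.3 TPM, 25.4 to 33.4), an ephrin known from axon guidance that also binds EPHB2, formed the next rank. EPHA4, which binds ephrin-A and ephrin-B ligands alike, stood at 14.9 TPM (11.1 to 19.1) and EPHA3 at 12.2 TPM (10.99 to 13.2). The lowest 3 were EFNA2 (3.45 TPM, 1.78 to 4.42), EPHA7 (2.45 TPM, 2.12 to 2.75) and EFNA3 (1.54 TPM, 1.25 to 1.87), the last above only 9.43% of the tested genes.

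With summed exons as length, the members fell into steps. Ranges over the 6 libraries did not overlap between EFNA1 and EPHA1, between EFNA5 and EPHA4, between EPHA3 and EFNA2, or between EPHA7 and EFNA3. Neighbours within a step did overlap. EPHA1 exceeded EFNA4 in 5 of 6 libraries, EFNA4 exceeded EPHA2 in 3 of 6, EPHA2 exceeded EFNA5 in 5 of 6, EPHA4 exceeded EPHA3 in 5 of 6 and EFNA2 exceeded EPHA7 in 4 of 6. These steps depended on the length used. With the mean transcript length in place of the summed exons, EPHA1 led at 62.1 TPM, apart from EFNA1 at 46.8 TPM, and EFNA4 dropped to 15.7 TPM, behind EPHA2 (35.7 TPM), EFNA5 (30.8 TPM) and EPHA4 (27.7 TPM). EPHA7 (1.64 TPM), EFNA2 (1.32 TPM) and EFNA3 (1.01 TPM) were still the lowest, with ranges that overlapped between neighbours. With only the exon bases that no other gene shares, EFNA3 (2.79 TPM) came above EPHA7 (2.45 TPM).

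**Figure D2:**
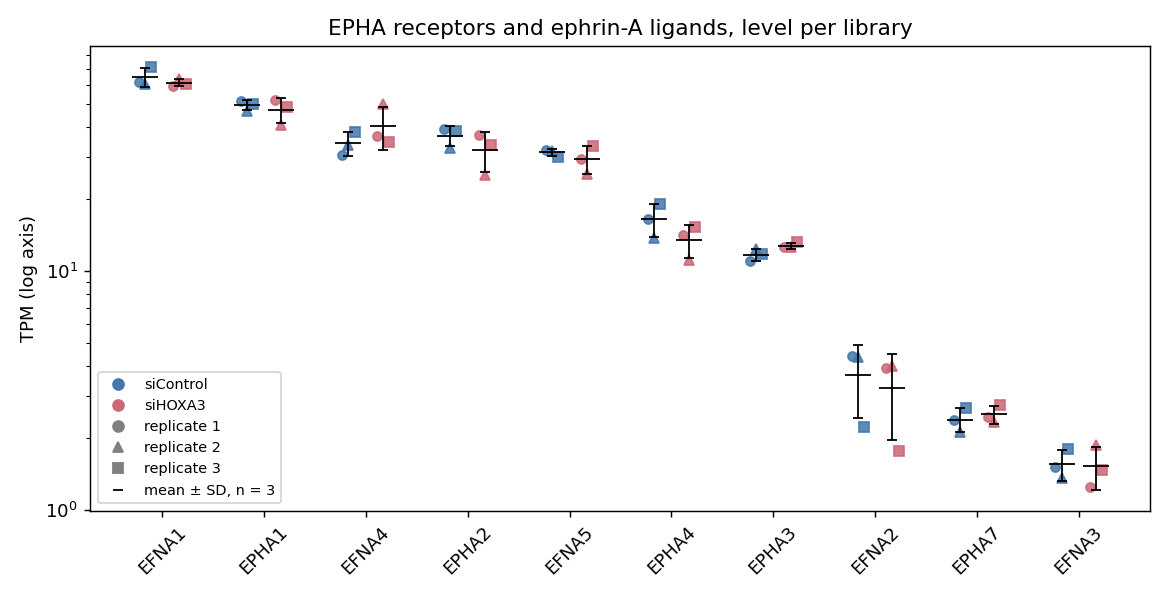
Level of each member in TPM (log axis) in every library, siControl in blue and siHOXA3 in red, with the marker giving the replicate and the bars the mean ± SD of 3 libraries. The genes run from EFNA1 at a mean of 62.7 TPM to EFNA3 at 1.54 TPM, and the siControl and siHOXA3 ranges overlap for every gene but EPHA3.

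Within the receptor class, EPHA1 and EPHA2 carried most of the transcripts. Over the 6 libraries EPHA1 took 40.9% to 44.4% of the summed TPM of the 5 receptors and EPHA2 27.4% to 32.5%. EPHA4 took 11.9% to 15.7%, EPHA3 9.14% to 13.7% and EPHA7 1.97% to 2.54%. Among the ligands EFNA1 took 43.9% to 49.6%, EFNA4 23.5% to 34.5% and EFNA5 17.6% to 25.4%, while EFNA2 (1.35% to 3.40%) and EFNA3 (0.962% to 1.30%) were minor. With the mean transcript length, EPHA1 (43.0% to 48.1%) and EFNA1 (47.5% to 52.2%) still led their classes, while EFNA5 (26.7% to 35.6%) passed EFNA4 (13.7% to 21.7%). With summed exons, EFNA4 reached its highest share, and EFNA5 its lowest, in the library labelled siHOXA3 replicate 2.

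**Figure D3:**
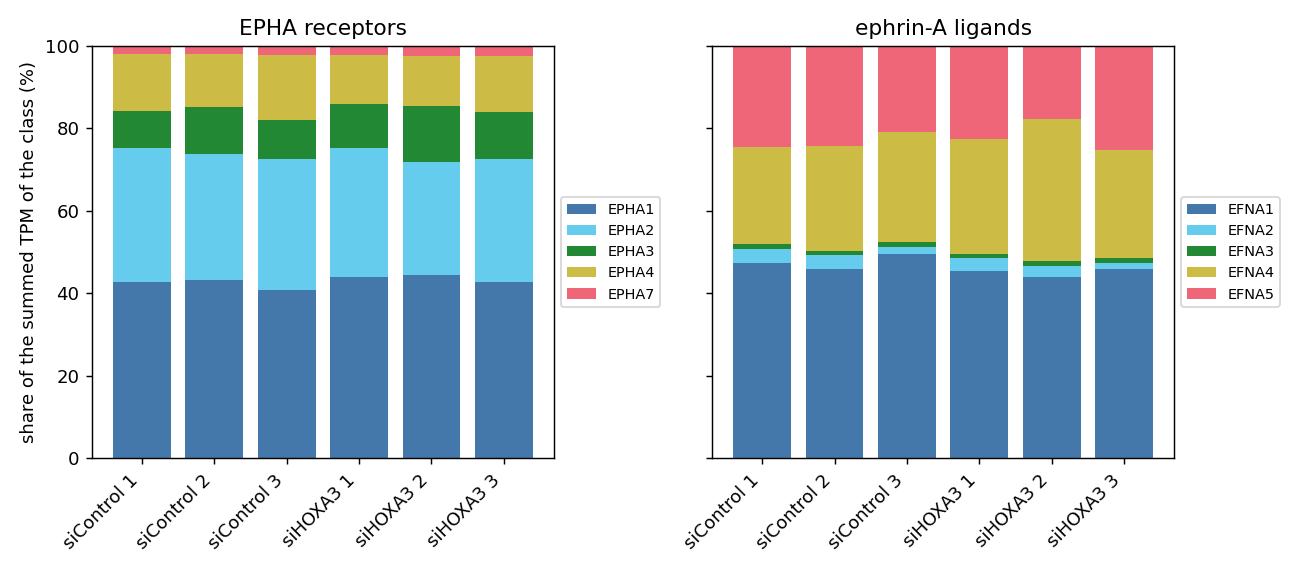
Share of each gene in the summed TPM of its class (%) in each of the 6 libraries, receptors on the left and ligands on the right. EPHA1 with EPHA2, and EFNA1 with EFNA4 and EFNA5, fill most of each bar, and siHOXA3 replicate 2 has the widest EFNA4 and the narrowest EFNA5 segment.

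Summed over the class, the receptors stood at 120.2, 107.6 and 121.5 TPM in siControl and at 117.9, 91.7 and 113.2 TPM in siHOXA3. The ligands stood at 130.01, 131.38 and 143.1 TPM in siControl and at 130.4, 144.4 and 131.7 TPM in siHOXA3. Both pairs of groups overlapped. The ratio of ligand to receptor TPM was 1.081, 1.221 and 1.178 in siControl (mean 1.16 ± 0.0714, SD, n = 3) and 1.106, 1.575 and 1.164 in siHOXA3 (1.28 ± 0.256), above 1 in all 6 libraries. This direction reversed with the mean transcript length, which gave a ratio of 0.643 to 0.889, below 1 in all 6 (0.684 ± 0.0418 in siControl and 0.746 ± 0.126 in siHOXA3), so the data do not fix which class was more abundant. The high value, 1.575, belongs to siHOXA3 replicate 2, the library with more signal on short transcripts, and 4 of the 5 ligands but none of the receptors fall in its shortest class. The part of that trend in the ratio was not tested. The other 5 libraries lay between 1.081 and 1.221.

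The EPHB receptors were more abundant than the EPHA receptors. The 5 EPHB receptors listed (EPHB1, EPHB2, EPHB3, EPHB4 and EPHB6) summed to 183.5 to 228.8 TPM, between 1.79 and 2 times the EPHA sum, with a median of 1.93. The 3 ephrin-B ligands summed to 155.7 to 192.3 TPM, between 1.08 and 1.47 times the ephrin-A sum, with a median of 1.39. Both ratios were above 1 in 6 of 6 libraries. With the mean transcript length the receptor ratio was 1.57 to 1.79, still above 1 in 6 of 6, but the ligand ratio was 0.668 to 0.869, above 1 in 0 of 6, so the order of the ligand classes turned on the length. Of the remaining EPHA receptors, EPHA5 had no count in any library, EPHA6 had 1 to 13 counts, EPHA8 0 to 6 and EPHA10 0 to 3, and none of these 4 passed the filter.

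The comparison of siHOXA3 with siControl asks whether the transcripts of these genes differed after the siRNA against HOXA3. The paper reports less HOXA3 after this siRNA, as mRNA by qRT-PCR and as protein by Western blot. In the sequenced libraries HOXA3 overlapped between the groups (edgeR adjusted p = 0.828). The effect of a lowered HOXA3 level on these genes was therefore not tested. No member passed the test, which does not exclude a change inside the intervals given below. The edgeR quasi-likelihood test, adjusted over 16561 genes, called 0 of the 10 members at an adjusted p under 0.05, where it called 1 gene over all tested (0.00604%). None of the 10 combined an unadjusted p under 0.05 with a log2 change larger than 1, as 0.688% of tested genes did. At an unadjusted p under 0.05 it called 0 of 10 as well, where the background was 6.36% of tested genes, 3.79% higher and 2.57% lower in siHOXA3. DESeq2 and limma-voom likewise called none of the members at either threshold, though DESeq2 gave no adjusted p for EFNA2 and EFNA3. The log2 fold change was above 0 for 4 members and below 0 for 6, with a median of -0.02 over the 10, where 50.4% of the tested genes were above 0 and their median was 0.00. The 5 receptors had a median of -0.02 and the 5 ligands of -0.02. The groups were fully separate for 1 of the 10 members, EPHA3 (higher in siHOXA3), where 13.3% of tested genes were separate, 6.41% higher and 6.88% lower.

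Among the receptors, EPHA1 lay closest to no change. Its levels were 62.3, 56.4 and 58.2 CPM in siControl and 63.4, 53.8 and 57.5 CPM in siHOXA3. The siHOXA3 range enclosed the control range. EPHA1 gave a log2 fold change of -0.02 ± 0.11 (SE, n = 3 per group; edgeR adjusted p = 0.978), with a 95% interval from a fold of 0.841 to 1.16. EPHA1 overlaps the actin-binding gene ZYX on the opposite strand over 82 exon bases (1.73% of its exons), and whether the counting used strand is not given in the sources used here.

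EPHA2 stood at 41.6, 34.8 and 39.6 CPM in siControl and 39.8, 29.2 and 35.0 CPM in siHOXA3. The lowest library was siHOXA3 replicate 2, and the other siHOXA3 values lay inside the control range. The log2 fold change of EPHA2 was -0.16 ± 0.14 (edgeR adjusted p = 0.865, fold 0.729 to 1.10). With each library left out in turn it ran from -0.27 without siHOXA3 replicate 1 to -0.05 without siHOXA3 replicate 2. With limma-voom it was -0.01.

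EPHA4 had the lowest fold change among the members. It stood at 31.8, 26.6 and 35.7 CPM in siControl and 27.4, 23.3 and 28.9 CPM in siHOXA3. Replicates 1 and 3 of siHOXA3 lay above the lowest control, so the groups overlapped. EPHA4 gave a log2 fold change of -0.24 ± 0.14 (edgeR unadjusted p = 0.117, adjusted p = 0.828), with an interval from a fold of 0.682 to 1.05. Without siControl replicate 2 the log2 fold change was -0.35 and the unadjusted p was 0.048 (edgeR adjusted p = 0.997). It was -0.14 without siControl replicate 3 (edgeR unadjusted p = 0.394), -0.16 without siHOXA3 replicate 2 and -0.105 with limma-voom. The antisense gene AC079834.2 shares 353 exon bases with EPHA4 (4.67% of its exons) and had 13 to 28 counts, against 351 to 545 for EPHA4.

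EPHA3, a receptor with ephrin-A5 as a high-affinity ligand, was the member whose groups separated. It stood at 18.8, 21.0 and 19.4 CPM in siControl and 21.7, 23.3 and 22.0 CPM in siHOXA3. All 3 siHOXA3 libraries were above all 3 controls, by a margin smaller than the spread within either group. EPHA3 thus gave a log2 fold change of 0.18 ± 0.12 (edgeR unadjusted p = 0.164, adjusted p = 0.843; fold 0.942 to 1.36), and across 14 alternatives it lay between 0.13 and 0.25. With 3 libraries against 3, the smallest two-sided p of an exact permutation test is 0.1.

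EPHA7 was rare in both groups, with 68, 61 and 75 counts in siControl and 69, 73 and 73 counts in siHOXA3. With these counts the log2 fold change was 0.13 ± 0.20 (edgeR adjusted p = 0.926; fold 0.803 to 1.48), an interval wide enough to hold changes in either direction.

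Among the ligands, EFNA1 stood at 40.1, 39.1 and 44.7 CPM in siControl and 38.9, 44.95 and 38.6 CPM in siHOXA3. The highest value of each group was nearly the same. For EFNA1 the log2 fold change was -0.02 ± 0.11 (edgeR adjusted p = 0.983; fold 0.831 to 1.18). EFNA5 stood at 46.8, 46.3 and 42.3 CPM in siControl and 43.2, 40.5 and 47.7 CPM in siHOXA3. The siHOXA3 group held both the lowest and the highest library. For EFNA5 the log2 fold change was -0.04 ± 0.11 (edgeR adjusted p = 0.9504; fold 0.821 to 1.15).

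EFNA4 had the highest fold change among the members, and its value turned on single libraries. Levels were 9.87, 10.8 and 11.9 CPM in siControl and 12.0, 17.6 and 10.9 CPM in siHOXA3. Replicate 2 of siHOXA3 stood above the other 5 libraries, while replicate 3 lay inside the control range. The log2 fold change was 0.31 ± 0.20 (edgeR unadjusted p = 0.140, adjusted p = 0.829; fold 0.921 to 1.67). It was 0.07 without siHOXA3 replicate 2 and 0.44 without the library labelled siHOXA3 replicate 3 (edgeR unadjusted p = 0.0517, adjusted p = 0.624). With limma-voom it was 0.13, and with the trend over transcript length and GC content removed it was 0.19.

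EFNA2 and EFNA3 gave few counts, and their comparison was correspondingly blunt. EFNA2 had 16, 16 and 8 counts in siControl and 14, 16 and 6 counts in siHOXA3. In both groups the library numbered 3 was the low one. Its log2 fold change was -0.11 ± 0.49 (edgeR adjusted p = 0.971), with a fold between 0.438 and 1.96. EFNA3 had 11, 10 and 13 counts in siControl and 9, 15 and 10 counts in siHOXA3, with a log2 fold change of 0.05 ± 0.43 (edgeR adjusted p = 0.985) and a fold between 0.533 and 1.999. The data do not exclude a change inside these intervals, and the smallest detectable change was not computed.

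**Figure D4:**
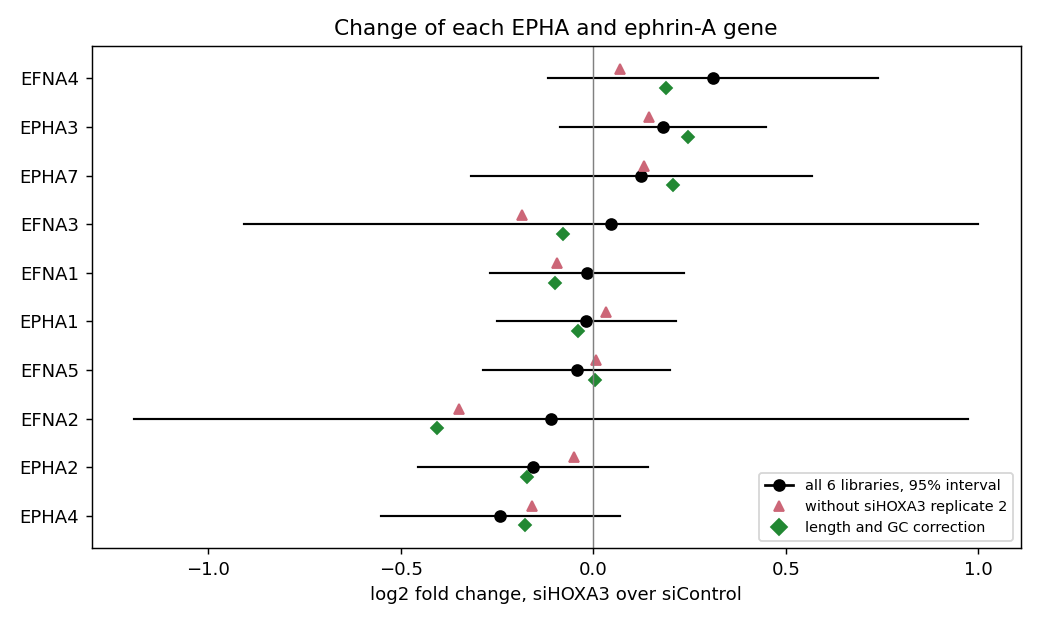
Log2 fold change of siHOXA3 over siControl for each member, with the 95% interval from all 6 libraries (black), the value without siHOXA3 replicate 2 (red triangles) and the value after correction for transcript length and GC content (green diamonds). All 10 intervals contain 0, those of EFNA2 and EFNA3 are the widest, and EFNA4 drops from 0.31 to 0.07 without siHOXA3 replicate 2.

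Precision differed between the members. The biological coefficient of variation estimated by edgeR was 9.85% for EPHA1, 10.0% for EFNA5, 10.3% for EFNA1 and EPHA3, 11.9% for EPHA2 and 12.3% for EPHA4. It was 14.6% for EPHA7, 16.3% for EFNA4, 23.1% for EFNA3 and 29.9% for EFNA2. The 3 members with the narrowest intervals of the fold change were EPHA1 (0.841 to 1.16), EFNA5 (0.821 to 1.15) and EFNA1 (0.831 to 1.18).

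Of the 5 ligand genes, 3 sit side by side on chromosome 1 in the order EFNA4 (chr1:155063731-155069553), EFNA3 (chr1:155078872-155087538) and EFNA1 (chr1:155127460-155134857), all on the plus strand and within 71.1 kb (GRCh38, GENCODE 29). Despite their closeness they covered nearly the whole range of levels in the family. EFNA4 and EFNA1 flank EFNA3 at 37.2 and 62.7 TPM, while EFNA3 stood at 1.54 TPM. The counts of EFNA3 and EFNA4 are uncertain, because GENCODE also lists AL691442.1, a gene that joins exons of both. It shares 853 bases with the exons of EFNA3 (44.7%) and 189 bases with those of EFNA4 (14.96%), and it had no count in any library. Among 50-base stretches of their transcripts, 42.2% in EFNA3 and 10.7% in EFNA4 also occur in another gene, against at most 0.24% in the other 8 members. With only the unshared exon bases as length, EFNA3 came to 2.79 TPM and EFNA4 to 43.7 TPM, so EFNA3 was still far below its neighbours. The other members lie on separate chromosomes or far apart, with EFNA2 at chr19:1286154-1300237, EFNA5 at chr5:107376889-107670895, EPHA1 at chr7:143390289-143408892, EPHA2 at chr1:16124337-16156087, EPHA3 at chr3:89107524-89482134, EPHA4 at chr2:221418027-221574202 and EPHA7 at chr6:93240020-93419547.

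**Figure D5:**
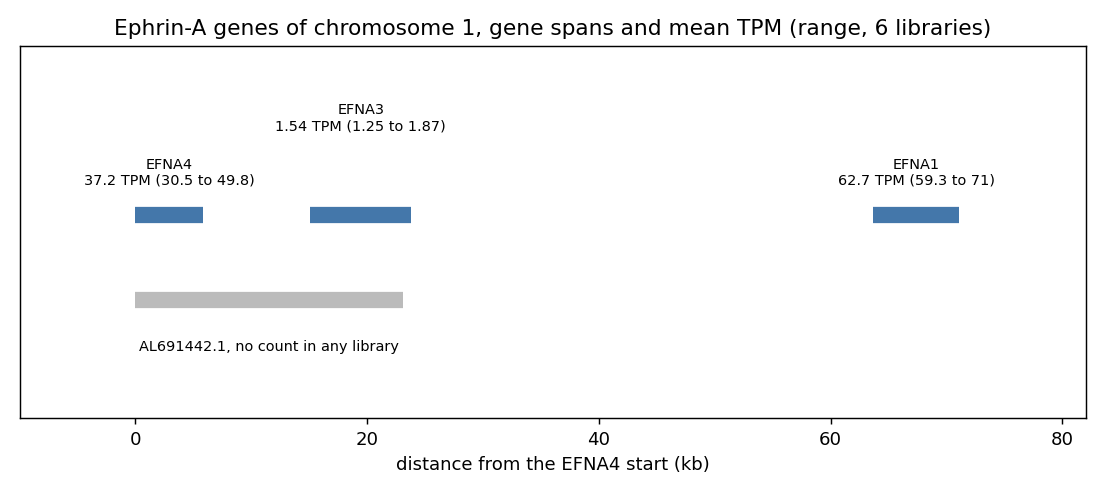
Spans of EFNA4, EFNA3 and EFNA1 (blue) and of AL691442.1 (grey) as distance from the start of EFNA4 in kb, to scale, with the mean and range of TPM over 6 libraries. EFNA3, at 1.54 TPM, lies between EFNA4 at 37.2 TPM and EFNA1 at 62.7 TPM, and AL691442.1 covers EFNA4 and most of EFNA3.

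The remaining genes of the pathway were read from lists fixed by function. The 8 EPHB receptors and ephrin-B ligands all passed the filter, 4 with a log2 fold change above 0 and 4 below, with a median of -0.01 and no unadjusted p under 0.05. Their most abundant members were EFNB2 (128 TPM, log2 fold change 0.02), EPHB4 (80.8 TPM, 0.13) and EPHB3 (74.5 TPM, 0.05). The groups were separate and lower in siHOXA3 for 2 of these 8, against 6.88% of all tested genes. These were EPHB2 (log2 fold change -0.29, edgeR adjusted p = 0.791) and EPHB6 (-0.24, edgeR adjusted p = 0.811), and neither passed the test. The margin was small, with siHOXA3 replicate 3 at 123.10 CPM against a lowest control of 123.72 for EPHB2, and 31.20 against 31.53 for EPHB6. Both genes were lowest in siHOXA3 replicate 2 (80.6 and 23.7 CPM), and their fold changes without it are not given here.

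Downstream of the receptors, 39 of 41 listed signalling partners were tested, 21 with a log2 fold change above 0 and 18 below, with a median of 0.01. The groups were separate for 6 of the 39, 3 higher and 3 lower, against 13.3% of all tested genes. Of the 15 adaptors and kinases that bind the receptors, 6 were above 0 and 9 below, with a median of -0.02 and no unadjusted p under 0.05. The most abundant were the adaptor ANKS1A (156 TPM, log2 fold change -0.02), the adaptor CRKL (153 TPM, -0.08) and the phosphatase PTPN11 (136 TPM, -0.11). Of the 7 tested genes for ephrin shedding and receptor dephosphorylation, 3 were above 0 and 4 below, with a median of -0.05 and no unadjusted p under 0.05. They were led by the protease MMP14 (202 TPM, log2 fold change 0.11), the phosphatase ACP1 (104 TPM, 0.15) and ADAM10 (77.3 TPM, -0.06), the protease known for cutting ephrin-A ligands.

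Of the 39 tested partners, 1 had an unadjusted p under 0.05, against 6.36% of all tested genes. CFL1, the actin-severing protein cofilin (191 TPM), had 288, 255 and 214 CPM in siControl and 310, 381 and 293 CPM in siHOXA3. All 3 siHOXA3 libraries were above all 3 controls, the lowest by a small margin. The log2 fold change was 0.38 ± 0.14 (edgeR unadjusted p = 0.0192, adjusted p = 0.724), so the difference did not pass the adjusted threshold. It was 0.25 without siHOXA3 replicate 2 (edgeR unadjusted p = 0.0245). The unadjusted p was 0.0521 without siControl replicate 2, at a log2 fold change of 0.39, and 0.103 without siControl replicate 3, at 0.27.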

How the data were processed

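Single-read RNA-seq libraries were made from 100 ng of total RNA by the LM-Seq protocol per the study's methods, and the labels also name a SMARTER mRNA kit. The authors deposited 1 table of raw counts, whole numbers of reads per gene in each of 6 libraries, without normalization. The aligner, the counting program, the strand setting and the genome build are not given in the sources used here. The submitters' processing notes list the mouse builds GRCm38 and mm10, whereas all 58735 identifiers were human and were found in GENCODE 29 (GRCh38), the source of symbols, positions and lengths.

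The tests used edgeR 4.0.16 under R 4.3.3, with filterByExpr, TMM scaling, a robust quasi-likelihood fit and a two-sided test of siHOXA3 against siControl (3 libraries each, grouped by label), with Benjamini-Hochberg adjustment over the 16561 genes kept. CPM is the count over the TMM-scaled library size. TPM was computed from the counts with the summed exon length. Standard errors are the log2 fold change over the square root of F, and intervals are 95%. Groups were called separate where their CPM ranges did not overlap. Total counts were 14117150 to 15282307 per library.

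Alternatives were DESeq2 1.42.0, limma-voom 3.58.1 with sample quality weights, upper-quartile scaling, library size only, no filter, a minimum of CPM above 1 in any 3 libraries, blocking on replicate number, each library left out in turn, and TPM by mean transcript length. A length and GC correction (mgcv 1.9.3) and TPM by unshared exons, and class sums by mean transcript length, were added after seeing the data. Named genes were every member, HOXA3, and in each pathway list the genes with an unadjusted p under 0.05 and the 3 of highest mean TPM. EPHB2, EPHB6, the overlapping genes of the members and of HOXA3, and the marker genes were named besides, after their values were seen, as were the partners YES1, VAV3 and LIMK1. Some listed marker and partner genes, with the counts of their sub-list, are not reported here. The members, lists and rules were chosen with earlier results of these data known. Promoters came from RefSeq (GRCh38.p14).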

Additional observations from a re-analysis of the deposited data

How the results depend on the processing

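No member passed an adjusted p of 0.05 under any alternative. Of 139 member values under the alternatives, 122 kept their direction and 17 reversed, all among the 5 members nearest 0 (EPHA1, EFNA1, EFNA2, EFNA3 and EFNA5), and HOXA3 stayed between -0.40 and -0.15 on the log2 scale. EPHA1 was 0.0557 and EFNA3 -0.0956 with limma-voom, EPHA1 was 0.00241 and EFNA1 0.00479 with upper-quartile scaling, which put 6 members above 0 in place of 4, and EFNA3 was -0.0782 and EFNA5 0.00548 with the length and GC correction. With each library left out in turn, log2 fold changes ran from -0.0823 to 0.0331 for EPHA1, from -0.0941 to 0.0452 for EFNA1, from -0.376 to 0.197 for EFNA2, from -0.184 to 0.183 for EFNA3 and from -0.108 to 0.00747 for EFNA5. The filter of CPM above 1 removed EFNA3, which has no value there.

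Over all genes, 1 gene was called by edgeR, 38 by DESeq2, 47 by limma-voom, 100 with no filter and 1 to 24 with a library left out, the highest without siHOXA3 replicate 2. Members with an unadjusted p under 0.05 numbered 0 to 1 with a library left out, the single case being EPHA4 without siControl replicate 2. Signalling partners with an unadjusted p under 0.05 numbered 1 (CFL1) with edgeR, 3 with limma-voom (YES1, VAV3 and CFL1) and 0 to 3 with a library left out, 0 without siControl replicate 2 and 3 without siHOXA3 replicate 2 (YES1, LIMK1 and CFL1). The number of all tested genes under that threshold moved as well. It was 1053 of 16561 with edgeR and 2206 of 16561 with limma-voom. Without siControl replicate 2 it was 643 of 17153, and without siHOXA3 replicate 2 it was 1828 of 17144. The causes of these shifts were not tested. In the fit with a replicate block, 4 genes were called in place of 1 and no member was. The correlations of same-numbered libraries' deviations were 0.176, 0.118 and -0.084, and those of differently numbered libraries ran from -0.201 to 0.107. These values do not settle whether the numbers pair the libraries, and the main test did not pair them. Depth limits EFNA2 and EFNA3, with 6 to 16 counts per library.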
